A study of Homo sapiens with 8 samples.

Results

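The machinery that senses leucine and controls mTORC1, the protein kinase complex that couples growth to nutrients, was followed at the mRNA level as 40 genes. They were chosen by name, for their place in the pathway. The set held 6 genes for amino acid sensors, 3 for GATOR1, 5 for GATOR2, 2 for KICSTOR, 4 for the Rag GTPases, 5 for Ragulator, 3 for the folliculin complex, 4 for the TSC complex and its target RHEB, 5 for mTORC1 itself and 3 for mTORC1 substrates. Of the 27776 genes listed in either of the 2 deposited tables, these were 40, and all 40 were listed and passed the filter on low values in both.

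RNA-seq was performed on 2 established human clear cell renal cell carcinoma (RCC) lines, 769-P, which came from a primary tumor, and CAKI-1, which came from a metastasis. Cells of both lines, with no genetic change named in the labels, spent 16 hours in medium with the branched-chain amino acids (BCAA), namely isoleucine at 0.38 mM, leucine at 0.38 mM and valine at 0.17 mM, or in medium without them. The study made its BCAA-depleted medium from an RPMI powder that lacks all amino acids, with dialyzed serum, and whether the other amino acids were put back in any of the 4 groups is not given in the sources used here. The lines were kept in different media before, RPMI for 769-P and MEM for CAKI-1, so that line and medium cannot be told apart. Each group held 2 libraries, 8 in all, and nothing in the labels says whether the 2 came from separate cultures, so that p-values measure the spread between these libraries only, which may be technical. The legend of the study's RNA-seq comparison states a larger n per condition than the number of libraries analysed here.

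mTORC1 is switched on at the lysosomal surface, where it is brought by Rag GTPase dimers, RagA or RagB with RagC or RagD, that sit on the Ragulator scaffold. GATOR1 keeps RagA and RagB in the inactive state, with KICSTOR holding it at the lysosome, and GATOR2 opposes GATOR1. Without leucine, Sestrin1, Sestrin2 and SAR1B bind GATOR2 and hold it back, and CASTOR1 does so without arginine. The folliculin complex acts on RagC and RagD, the TSC complex turns off RHEB, the direct activator of mTORC1, and active mTORC1 phosphorylates the translation repressors 4E-BP1 and 4E-BP2 and the kinase S6K1. These steps are carried by proteins and their phosphorylation, which mRNA levels do not measure.

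Reads counted on listed genes ranged from 30979773 to 64256834 over the 8 libraries. In 769-P both libraries with BCAA, at 64256834 and 55829324 reads, were deeper than both without, at 39062721 and 40130258. With every library thinned to 30979773 reads, 12 members were higher and 13 lower in 769-P, against 13 and 15 at full depth. The values below are reads per gene divided by a size factor for each library, set separately in each table. The renal markers PAX8, KRT8, KRT18 and VIM were read in every library of both lines, while CA9, a marker of clear cell RCC, was listed in neither table. Of the other 3 renal and clear cell RCC markers looked at, PAX2 was read in 769-P and not listed in CAKI-1, CDH16 had values of 643 to 714 in 769-P and 16.7 to 34.2 in CAKI-1, and NDUFA4L2, another marker of clear cell RCC, had 0.758 to 2.57 in 769-P and 88.5 to 216 in CAKI-1. Of 7 markers of blood, immune and endothelial cells, 3 were listed in 769-P and 2 in CAKI-1, with summed values of 17.4 and 13.7 with BCAA and 4.97 and 1.22 without in 769-P, and of 0.973 and 2.50 with and 7.60 and 5.15 without in CAKI-1. CD3E, HBB and CDH5 were listed in neither table. Their part in the results was not tested. In bulk RNA, fewer cells that express a gene and less RNA per cell cannot be told apart.

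The promoters of the 4 members that were lower with BCAA in 769-P and held the E-box CACGTG, a palindrome read by basic helix-loop-helix factors, are shown so that the letters can be read in place. This choice was made after the values were seen. The windows come from RefSeq (GRCh38.p14), run 5′ to 3′ from 250 bases before to 50 bases after an annotated start, and are written along the strand of the gene. Capitals mark CACGTG or, where its flanks extend it, TCACGTGA, the letters of the CLEAR element read by the lysosomal factors TFEB, TFE3 and MITF. RRAGB held CACGTG 3 times and FNIP1 held it 2 times. SESN2, the member with the largest fall in 769-P, is added and held none of the letters searched.
RRAGB (chrX:55717499-55717798, plus strand): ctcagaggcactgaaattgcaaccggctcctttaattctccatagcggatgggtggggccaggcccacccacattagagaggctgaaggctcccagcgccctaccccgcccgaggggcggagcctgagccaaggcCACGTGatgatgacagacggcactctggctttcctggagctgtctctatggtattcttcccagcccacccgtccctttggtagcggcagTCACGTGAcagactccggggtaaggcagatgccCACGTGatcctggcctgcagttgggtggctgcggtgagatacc
RRAGC (chr1:38859723-38860022, minus strand): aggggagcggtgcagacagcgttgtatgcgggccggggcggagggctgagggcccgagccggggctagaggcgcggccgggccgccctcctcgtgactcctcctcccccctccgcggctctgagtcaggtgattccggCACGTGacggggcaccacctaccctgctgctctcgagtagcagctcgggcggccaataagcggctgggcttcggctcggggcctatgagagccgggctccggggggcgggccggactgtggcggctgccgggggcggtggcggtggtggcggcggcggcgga
TSC2 (chr16:2047735-2048034, plus strand): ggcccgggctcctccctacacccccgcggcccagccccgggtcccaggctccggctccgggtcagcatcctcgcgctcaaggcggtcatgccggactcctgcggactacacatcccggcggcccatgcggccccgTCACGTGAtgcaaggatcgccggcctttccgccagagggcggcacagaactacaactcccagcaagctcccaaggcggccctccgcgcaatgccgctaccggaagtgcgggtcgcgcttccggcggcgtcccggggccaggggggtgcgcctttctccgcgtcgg
FNIP1 (chr5:131796968-131797267, minus strand): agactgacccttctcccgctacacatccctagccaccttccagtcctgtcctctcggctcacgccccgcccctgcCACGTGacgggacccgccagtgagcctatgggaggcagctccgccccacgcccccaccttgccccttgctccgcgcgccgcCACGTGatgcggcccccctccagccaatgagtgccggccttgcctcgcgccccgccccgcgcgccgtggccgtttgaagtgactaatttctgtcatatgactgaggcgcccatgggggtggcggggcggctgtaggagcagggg
SESN2 (chr1:28259268-28259567, plus strand): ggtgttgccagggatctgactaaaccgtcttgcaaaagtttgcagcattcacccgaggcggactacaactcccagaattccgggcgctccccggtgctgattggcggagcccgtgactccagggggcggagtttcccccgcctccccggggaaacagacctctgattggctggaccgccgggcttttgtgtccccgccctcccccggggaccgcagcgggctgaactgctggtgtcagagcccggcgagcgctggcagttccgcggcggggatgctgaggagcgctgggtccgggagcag

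A window was matched by symbol for 33 of the 40 members, 43 windows in all, and not for EIF4EBP1, DEPTOR, RRAGA, RRAGD, WDR24, MLST8 and AKT1S1. CACGTG lay in a window of 7 members, RRAGB, RRAGC, TSC2, FNIP1, LAMTOR1, LAMTOR4 and NPRL3, and in 16.3% of the members' windows against 7.23% of 34943 promoters. Neither this gap nor the split by call that follows was tested. Of the 11 members lower with BCAA in 769-P that had a window, 4 held CACGTG (RRAGB, RRAGC, TSC2 and FNIP1) and SESN2, MIOS, WDR59, ITFG2, LAMTOR3, FLCN and TBC1D7 did not. Of the 12 higher members with a window 1 held it, LAMTOR4, and of the 10 members not called LAMTOR1 and NPRL3 did. TCACGTGA, which contains CACGTG, lay in windows of RRAGB and TSC2 and in 0.979% of all promoters. The letters TGATGNAAT or, on the other strand, ATTNCATCA, a composite site of C/EBP and ATF factors, lay in 0 of the 43 windows and in 0.996% of all promoters. A match is a match of letters and not a bound site, and a window without one says nothing of the factor.

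More members differed between the conditions in 769-P than in CAKI-1, as did genes at large. With limma on log2(value + 1) and Benjamini-Hochberg adjustment over all genes tested, called at an adjusted p of 0.05, 13 members were higher with BCAA in 769-P and 15 were lower, while 20.3% of the 22391 genes tested were higher and 18.2% lower. In CAKI-1, 4 members were higher and 4 lower, against 10.8% and 9.05% of 21347 genes. Well measured genes are called more often, and 38 members in 769-P and 36 in CAKI-1 had a mean value of at least 100. Of genes with such a mean, 34.1% were higher and 28.9% lower in 769-P, against 12 (31.6%) and 15 (39.5%) of those 38 members. The same shares in CAKI-1 were 18.7% higher and 15.5% lower, against 4 (11.1%) and 3 (8.33%) of those 36 members. These gaps between members and genes were not tested. Their median log2 fold change was 0.03 in 769-P, where all genes tested had -0.02, and -0.06 in CAKI-1, where all genes tested had -0.01. Centring each library on its median moved the share of higher genes among all calls from 52.7% to 45.9% in 769-P and from 54.5% to 43.7% in CAKI-1, and gave 7 lower members in CAKI-1 in place of 4.

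**Figure D1:**
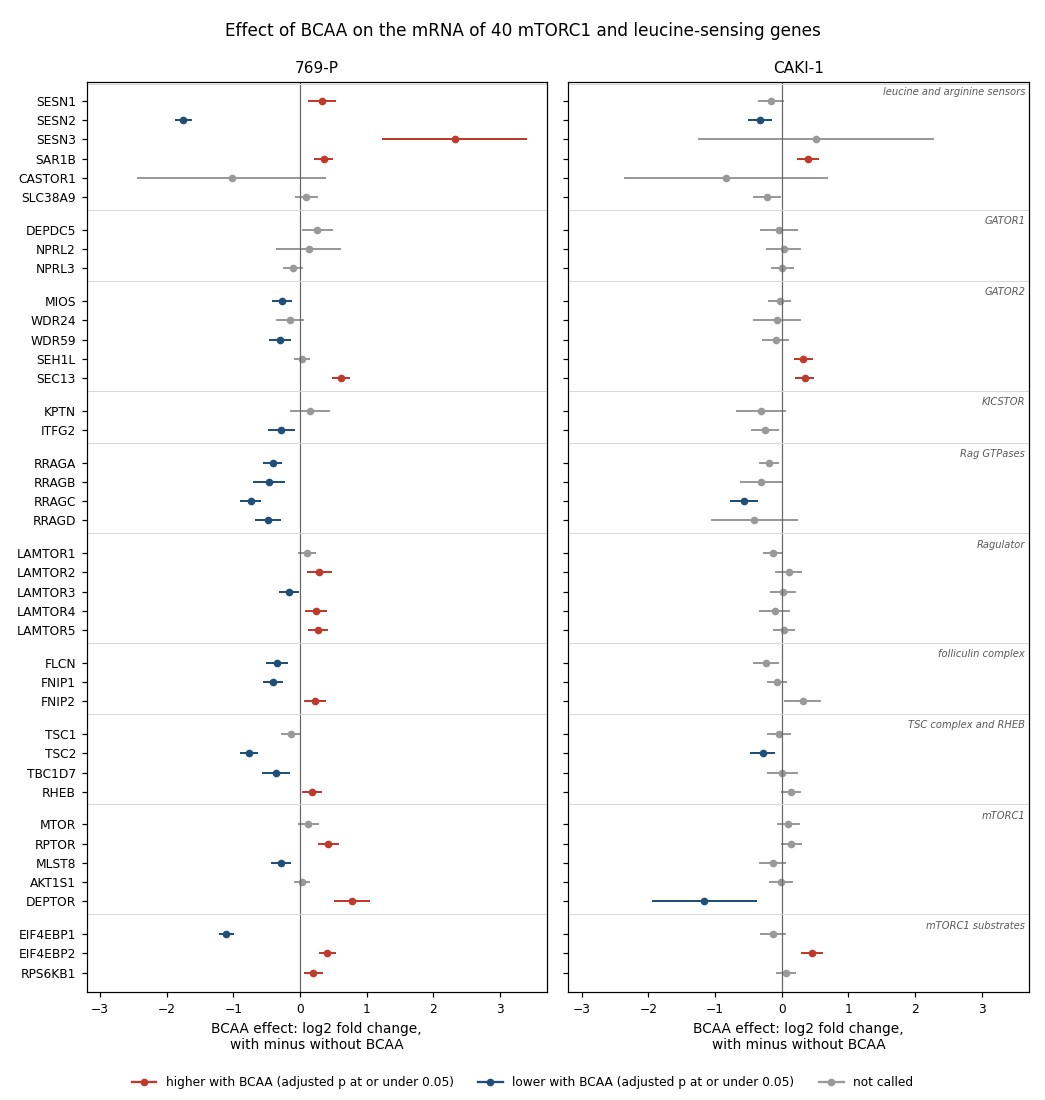
Log2 fold change with BCAA over without BCAA (x axis) for each of the 40 members (y axis, grouped by complex) in 769-P (left) and CAKI-1 (right). Points are limma estimates from 2 libraries per condition, bars are 95% confidence intervals and colors give the call, and the 4 Rag GTPases lie left of 0 in both lines, with all 4 called in 769-P and RRAGC alone in CAKI-1.

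The 2 well measured Sestrin genes moved apart in 769-P. SESN2 (ENSG00000130766, chr1:28259527-28282491, GRCh38), whose protein is a leucine sensor, read 1754 and 1740 with BCAA and 5999 and 5777 without. The groups stood far apart, and SESN2 was 3.37-fold lower with BCAA (log2 fold change -1.75 ± 0.05, SE, adjusted p = 3.5e-10 by limma), the largest fall among the members. In CAKI-1 it read 3304 and 3838 with BCAA and 4347 and 4595 without, again without overlap and 1.26-fold lower (-0.33 ± 0.08, adjusted p = 0.0101). That call was lost when reads were thinned to the depth of the smallest library, with an adjusted p of 0.0536 at a log2 fold change of -0.31.

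SESN1 (ENSG00000080546, chr6:108986437-109094819), the paralog known as a p53 target that also binds GATOR2, read 654 and 676 with BCAA and 535 and 525 without in 769-P. It was 1.25-fold higher (0.33 ± 0.09, adjusted p = 0.0114), a call lost without any 1 of the 4 libraries, at 0.30 to 0.35 and an adjusted p of 0.0859 to 0.106. In CAKI-1 the values with BCAA, 824 and 793, lay below those without, 913 and 897, at a log2 fold change of -0.16 ± 0.08 that was not called (adjusted p = 0.207). The effect on SESN1 differed between the lines by 0.49 ± 0.12 on the log2 scale, 769-P minus CAKI-1 (adjusted p = 0.00845 for the interaction term of limma). SESN3 (ENSG00000149212, chr11:95165513-95232541), the remaining Sestrin and a known FOXO target, was barely read. In 769-P it had 43 and 42 reads with BCAA and 4 and 6 without, which are values of 32.6, 35.9, 4.97 and 7.34 and a called log2 fold change of 2.32 ± 0.49 (adjusted p = 0.00241). This call was lost without either library with BCAA or without replicate 1 of the group without BCAA, at 2.08 to 2.56 over the left-out libraries and an adjusted p of up to 0.104. In CAKI-1 it had 3 and 7 reads with BCAA and 5 and 1 without, too few to show a difference, and its groups overlapped.

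Within a library, the level of SESN2 per kilobase of exon can be set against that of SESN1. The ratio in 769-P was 16.6 and 16.3 without BCAA and 3.98 and 3.82 with it. In CAKI-1 it was 7.06 and 7.60 without and 5.95 and 7.18 with BCAA, and there the groups overlapped. SESN2 was the Sestrin with the highest level in all 4 groups, by this length and by that of the longest coding transcript, and SESN3 had the lowest level of all 40 members in the 2 groups without BCAA and in CAKI-1 with BCAA, again by both lengths.

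**Figure D2:**
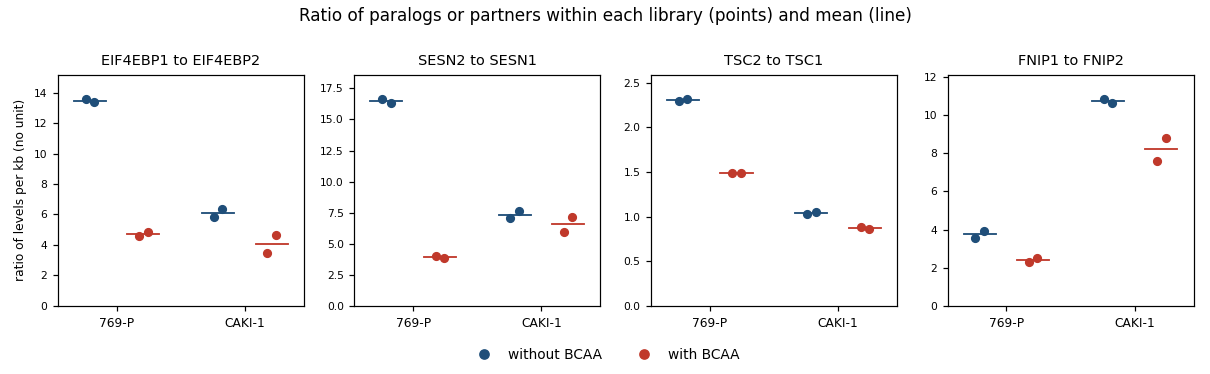
Ratio of the levels of 2 related genes per kilobase of exon within each library (y axis, no unit, from 0), for the 4E-BPs, the Sestrins, the TSC genes and the FNIP genes, in each cell line (x axis) without and with BCAA. Points are libraries and lines are means of 2 libraries, and in 769-P each of the 4 ratios is lower in both libraries with BCAA than in both without.

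Among the remaining sensors SAR1B was higher with BCAA in both lines. SAR1B (ENSG00000152700, chr5:134601144-134649271), a small GTPase of vesicle coats that is also a leucine sensor, read 2547 and 2422 with BCAA and 1883 and 2004 without in 769-P. It was higher by 0.35 ± 0.06 on the log2 scale (1.28-fold, adjusted p = 0.000527), a call lost without any 1 of the 4 libraries, at 0.31 to 0.40 and an adjusted p of 0.0501 to 0.0954. Its values in CAKI-1 were 1966 and 1901 with BCAA and 1453 and 1494 without (0.39 ± 0.07, 1.31-fold, adjusted p = 0.00209). The effect on SAR1B differed between the lines by -0.04, with a 95% confidence interval from -0.23 to 0.15. SLC38A9, the lysosomal arginine sensor, was called in neither line, at 0.10 ± 0.07 in 769-P and -0.22 ± 0.09 in CAKI-1. CASTOR1, the cytosolic arginine sensor, had values of 3.42 to 16.1 in 769-P and 2.92 to 10.3 in CAKI-1, few enough that its estimates, -1.03 ± 0.64 and -0.84 ± 0.69, were not called. Of its exon bases 46.0% are shared with another gene on the same strand, and reads of the pair cannot be assigned with certainty.

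No GATOR1 gene was called by limma in either line. Its subunits DEPDC5, NPRL2 and NPRL3 had log2 fold changes of 0.26 ± 0.10, 0.13 ± 0.22 and -0.11 ± 0.06 in 769-P, and DEPDC5 alone had an unadjusted p under 0.05 (0.021, adjusted p = 0.0538). In CAKI-1 all 3 lay between -0.04 and 0.03. NPRL3 had the highest level of the 3 in all 4 groups and DEPDC5 the lowest, whether levels were taken per merged exon length or per length of the longest coding transcript, and NPRL2 varied between libraries without BCAA in 769-P, at 152 and 248.

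GATOR2 was split. SEC13 (ENSG00000157020, chr3:10293131-10321178), which also serves in COPII coats and nuclear pores, read 3052 and 2972 with BCAA and 1908 and 2023 without in 769-P. It was 1.53-fold higher (0.62 ± 0.06, adjusted p = 3.6e-06). In CAKI-1 it read 4992 and 5090 with BCAA and 4014 and 3927 without, 1.27-fold higher (0.34 ± 0.06, adjusted p = 0.0015). SEH1L, the other subunit shared with the nuclear pore, was higher in CAKI-1, by 0.32 ± 0.06 (adjusted p = 0.00279), and had 0.03 ± 0.05 in 769-P. MIOS and WDR59, subunits particular to GATOR2, fell in 769-P by 0.27 and 0.30 on the log2 scale and had -0.03 and -0.09 in CAKI-1. WDR24, of whose exon bases 35.7% lie across from a gene on the opposite strand, had -0.15 and -0.07 and was called in neither line. In both lines the 2 subunits shared with the nuclear pore had the highest log2 fold changes of the 5. The difference between the lines was called for SEH1L (-0.30 ± 0.07, adjusted p = 0.00931) and SEC13 (0.27 ± 0.08, adjusted p = 0.0215). That on SEC13 was lost without replicate 1 of 769-P with BCAA, of 769-P without BCAA or of CAKI-1 without BCAA, with an adjusted p of up to 0.104.

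Of KICSTOR, ITFG2 was lower in 769-P (-0.28 ± 0.09, adjusted p = 0.0232) and not called in CAKI-1 (-0.25 ± 0.09, adjusted p = 0.0793), without overlap between the conditions in either line. The call in 769-P was lost with DESeq2 and with thinned reads. Of ITFG2's exon bases 22.5% lie across from other genes on the opposite strand, among them FOXM1, and whether reads were counted by strand is not given in the sources used here. KPTN was called in neither line, at 0.15 ± 0.13 in 769-P and -0.31 ± 0.16 in CAKI-1.

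The 4 Rag GTPase genes shared a direction. In 769-P all 4 were lower with BCAA, by 0.41 to 0.74 on the log2 scale. In CAKI-1 the 4 estimates ran from -0.57 to -0.19 and RRAGC alone was called. For each of the 4 genes both libraries with BCAA lay below both without in each line, as did 16.2% of the 19406 genes tested in both tables. That share takes in barely read genes, and the share over well measured genes alone was not taken. None of the 4 effects was called as different between the lines, with differences of -0.22 for RRAGA, -0.15 for RRAGB, -0.16 for RRAGC and -0.07 for RRAGD. The widest interval, that of RRAGD, ran from -0.58 to 0.44.

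RRAGC (ENSG00000116954, chr1:38838198-38859823, minus strand), which codes for RagC, had the largest fall of the 4. It read 1089 and 1130 with BCAA and 1818 and 1877 without in 769-P, 1.67-fold lower (-0.74 ± 0.06, adjusted p = 2.3e-06). In CAKI-1 it read 754 and 854 with BCAA and 1185 and 1199 without, 1.49-fold lower (-0.57 ± 0.09, adjusted p = 0.00089). Of its exon bases 22.9% are shared with another annotated gene on the same strand. RRAGA read 2259 and 2282 with BCAA and 3120 and 2917 without in 769-P, and 2987 and 2994 with and 3306 and 3517 without in CAKI-1 (adjusted p = 0.000103 and 0.0544). RRAGB, the paralog of RRAGA, read 460 and 542 with BCAA and 666 and 712 without in 769-P (adjusted p = 0.00341), and 254 and 306 with and 364 and 331 without in CAKI-1 (adjusted p = 0.139). RRAGD read 660 and 645 with BCAA and 873 and 953 without in 769-P (adjusted p = 0.00056). Its values in CAKI-1 were 49.6 and 38.3 with BCAA and 55.1 and 61.8 without (adjusted p = 0.381).

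The lines differed in the place of RRAGD among the Rag genes. As RPKM (reads per kilobase of merged exon, scaled to the listed reads of the library), RRAGA had the highest level of the 4 in every group, from 29.6 ± 0.6 (SD, n = 2) in 769-P with BCAA to 54.1 ± 2.0 in CAKI-1 without. RRAGD stood near RRAGC in 769-P, with a ratio of RRAGC to RRAGD of 1.62 to 2.04 over the 4 libraries. In CAKI-1 that ratio was 14.9 to 21.9. With the length of the longest coding transcript the mean ratios were 3.05 and 3.63 in 769-P and 32.8 and 36.6 in CAKI-1. These ratios are within a library and so do not rest on the scaling between the tables.

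**Figure D3:**
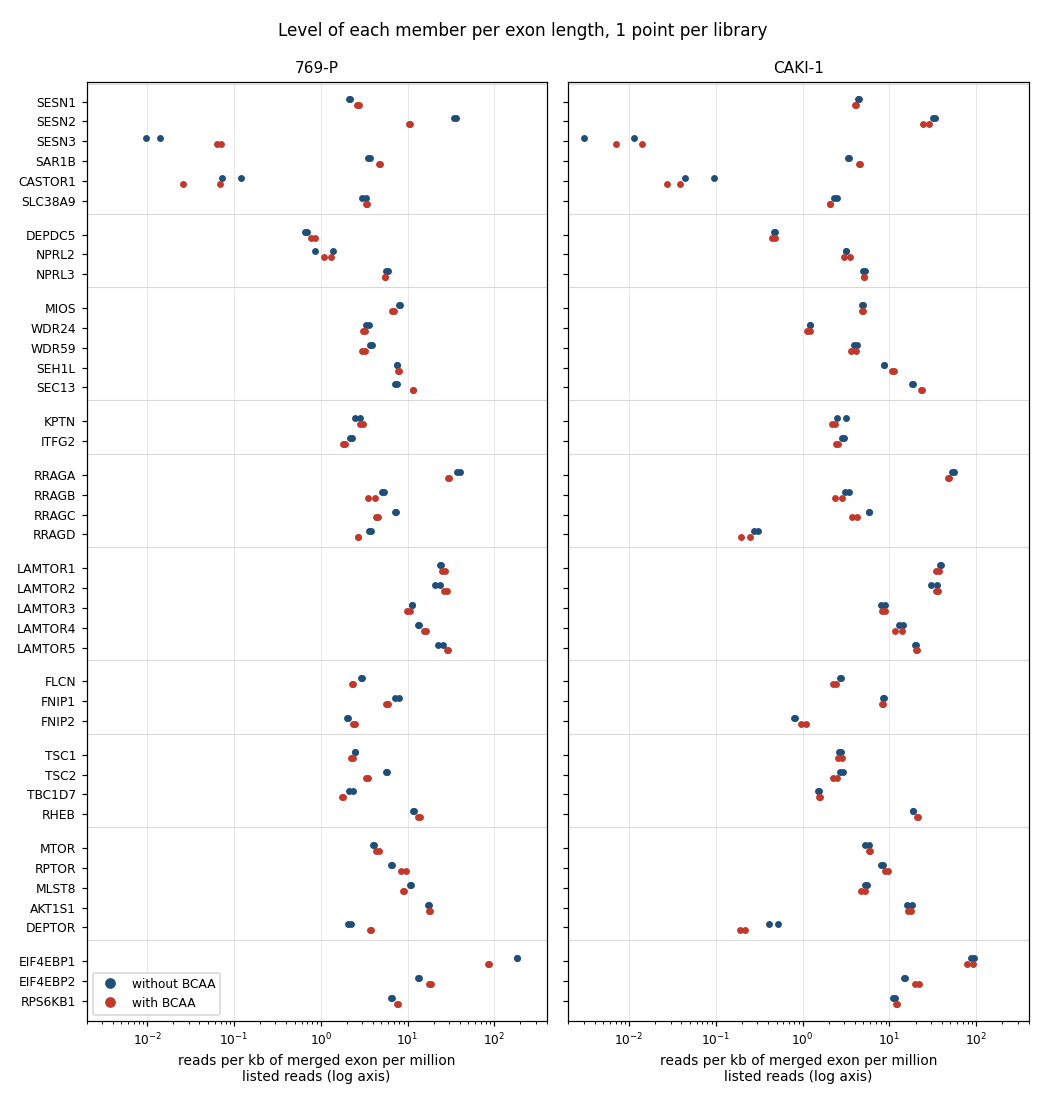
Level of each member as RPKM over merged exons and listed reads (x axis, log scale), by complex (y axis), in 769-P (left) and CAKI-1 (right), with 1 point per library and color for the condition. EIF4EBP1 stands highest in all groups and SESN3 and CASTOR1 lowest, and RRAGD and DEPTOR sit far to the left of their places in 769-P when read in CAKI-1.

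Ragulator, the scaffold of the Rag GTPases, did not follow them. LAMTOR2, LAMTOR4 and LAMTOR5 rose with BCAA in 769-P, by 0.29 ± 0.08, 0.24 ± 0.07 and 0.27 ± 0.06 on the log2 scale (adjusted p = 0.0114, 0.013 and 0.00363). Of the exon bases of LAMTOR4 18.4%, and of those of LAMTOR5 17.5%, lie across from a gene on the opposite strand. LAMTOR3 was lower by a small margin (-0.16 ± 0.06, adjusted p = 0.0437), and LAMTOR1, the membrane anchor, had 0.10 ± 0.05. In CAKI-1 none of the 5 was called by limma or had an unadjusted p under 0.05, with estimates from -0.13 to 0.10. The 3 rises were lost under quantile normalization, where they had 0.23, 0.18 and 0.23, and the call on LAMTOR3 was lost in 6 of 11 other settings. No Ragulator gene was called as different between the lines, LAMTOR1 coming nearest with 0.23 ± 0.08 (adjusted p = 0.0501).

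In the folliculin complex, the GTPase-activating partner of RagC and RagD, FLCN read 1094 and 1106 with BCAA and 1401 and 1393 without in 769-P and was lower (-0.34 ± 0.07, adjusted p = 0.00124). FNIP1 was lower as well (-0.40 ± 0.06, adjusted p = 0.000258), whereas FNIP2 was higher (0.23 ± 0.07, adjusted p = 0.0216). In CAKI-1 the 3 estimates were -0.24 ± 0.08, -0.08 ± 0.06 and 0.31 ± 0.12, and none was called. The ratio of FNIP1 to FNIP2 per kilobase was 3.56 and 3.94 without BCAA and 2.31 and 2.53 with it in 769-P. The corresponding ratios in CAKI-1 were 10.8 and 10.6 without and 7.60 and 8.80 with BCAA. The effect on FNIP1 differed between the lines by -0.33 ± 0.09 (adjusted p = 0.0161), a call lost without replicate 1 of 769-P with BCAA or replicate 2 of either group without BCAA, with an adjusted p of up to 0.0938. FNIP2 lost its call in 769-P in 4 of 11 other settings, and 11.9% of the exon bases of FLCN are shared with another gene on the same strand.

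The TSC complex is the brake on RHEB. TSC2 (ENSG00000103197, chr16:2047465-2089487), its GTPase-activating subunit, read 3351 and 3127 with BCAA and 5433 and 5578 without in 769-P, 1.70-fold lower (-0.77 ± 0.05, adjusted p = 2.6e-07). In CAKI-1 it read 1913 and 1706 with BCAA and 2104 and 2305 without, 1.22-fold lower (-0.29 ± 0.08, adjusted p = 0.0255). The latter call was lost under quantile normalization (adjusted p = 0.0691) and with thinned reads. TSC1, the stabilizing partner, was called in neither line, at -0.13 ± 0.06 and -0.04 ± 0.07. The ratio of TSC2 to TSC1 per kilobase went from 2.30 and 2.32 without BCAA to a mean of 1.49 ± 0.01 (SD, n = 2) with it in 769-P, and was 1.04 ± 0.02 without and 0.875 ± 0.012 with BCAA in CAKI-1. TBC1D7, the smallest subunit, was lower in 769-P (-0.35 ± 0.09, adjusted p = 0.00714) and had 0.01 ± 0.10 in CAKI-1. RHEB, the target of the complex, was higher by 0.18 ± 0.06 in 769-P (adjusted p = 0.0286), where the call was lost without a filter on low values, under median centring and under quantile normalization, and had 0.14 ± 0.06 in CAKI-1. Of the 50-base stretches of RHEB transcripts, 9.29% also occur in transcripts of other genes, its pseudogenes among them.

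In mTORC1 the kinase gene itself was called in neither line. MTOR read 2770 and 2491 with BCAA and 2418 and 2390 without in 769-P (0.13 ± 0.06, adjusted p = 0.137), and its estimate in CAKI-1 was 0.10 ± 0.07. RPTOR, which codes for the substrate-binding subunit Raptor, was higher in 769-P, at 4749 and 4079 with BCAA and 3278 and 3269 without (0.43 ± 0.07, 1.34-fold, adjusted p = 0.000263). In CAKI-1 RPTOR had 0.15 ± 0.07 and was not called. MLST8, shared with mTORC2, was lower in 769-P (-0.29 ± 0.06, adjusted p = 0.00225) and had -0.14 ± 0.09 in CAKI-1. AKT1S1, which codes for the inhibitory subunit PRAS40, had 0.03 ± 0.05 and -0.02 ± 0.07.

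DEPTOR (ENSG00000155792, chr8:119873717-120050913), which codes for the other inhibitory subunit, was the single member called in opposite directions. In 769-P it read 466 and 477 with BCAA and 260 and 290 without, 1.72-fold higher (0.78 ± 0.11, adjusted p = 0.000161), a call lost without either library with BCAA, at 0.70 to 0.86 over the left-out libraries and an adjusted p of up to 0.0779. In CAKI-1 it read 19.5 and 22.5 with BCAA and 42.8 and 54.0 without, 2.24-fold lower (-1.16 ± 0.35, adjusted p = 0.0383). The groups were apart in both lines, and the effects differed by 1.94 ± 0.30 (adjusted p = 0.000433). The values in CAKI-1 rest on 20 to 45 reads per library, and the call there was lost without a filter on low values, under quantile normalization and with thinned reads, where the adjusted p went up to 0.0774. The ratio of DEPTOR to MTOR per kilobase was 0.496 to 0.885 over the libraries of 769-P and 0.0313 to 0.0889 over those of CAKI-1.

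**Figure D4:**
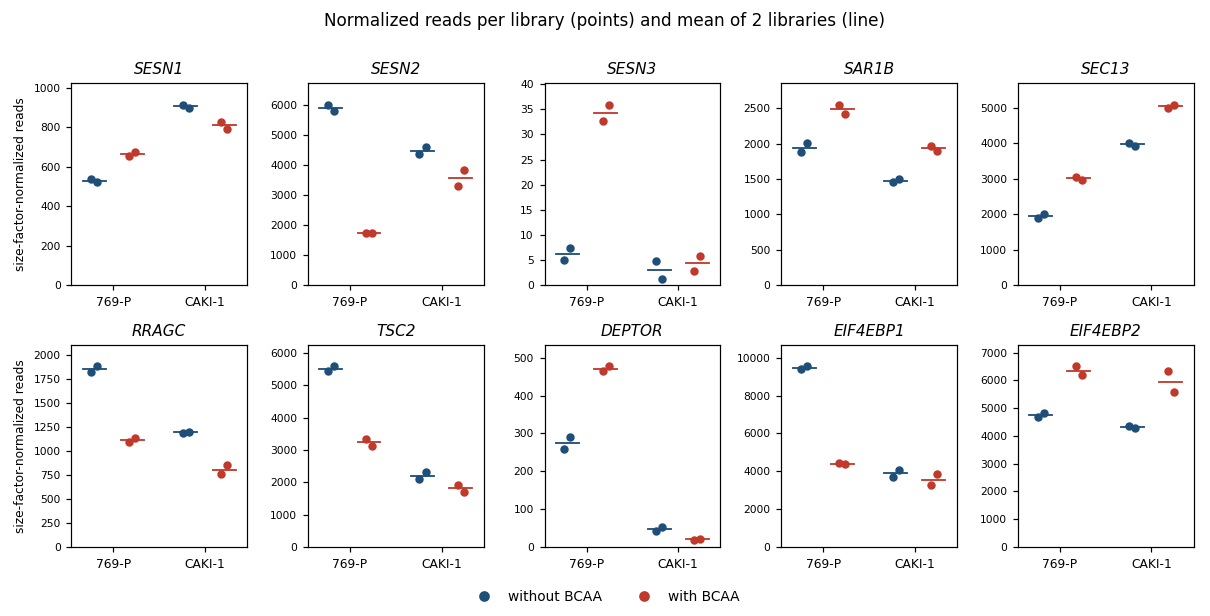
Reads per gene divided by the library's size factor (y axis, from 0), in each line (x axis) without and with BCAA. Shown are the 3 Sestrin genes, the members called in both lines and those called in a line where they changed by at least 0.5 on the log2 scale. Points are libraries and lines are means of 2 libraries; SESN2, RRAGC and TSC2 are lower with BCAA in both lines, SAR1B, SEC13 and EIF4EBP2 higher in both, and DEPTOR opposite, as tested in the text.

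The 2 genes for 4E-BPs, the translation repressors that mTORC1 inactivates, moved in opposite directions in 769-P. EIF4EBP1 (ENSG00000187840, chr8:38030341-38060365) read 4419 and 4407 with BCAA and 9416 and 9542 without, 2.15-fold lower (-1.10 ± 0.04, adjusted p = 2.8e-09). EIF4EBP2 (ENSG00000148730, chr10:70404379-70428618) read 6502 and 6186 with BCAA and 4698 and 4832 without, 1.33-fold higher (0.41 ± 0.05, adjusted p = 2.5e-05). In CAKI-1 EIF4EBP1 read 3263 and 3847 with BCAA and 3726 and 4048 without, with overlap between the groups and no call (-0.13 ± 0.08, adjusted p = 0.304). EIF4EBP2 was higher there too, at 6329 and 5574 with BCAA and 4340 and 4303 without (0.46 ± 0.07, 1.37-fold, adjusted p = 0.000753). The effect on EIF4EBP1 differed between the lines by -0.97 ± 0.10 (adjusted p = 1.4e-05), and that on EIF4EBP2 by -0.05, with a 95% confidence interval from -0.23 to 0.14.

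Per kilobase of exon EIF4EBP1 had the highest level of all 40 members in every group. Its level in 769-P was 181.0 without BCAA and 85.3 with it. The ratio of EIF4EBP1 to EIF4EBP2 per kilobase was 13.6 and 13.4 without BCAA and 4.60 and 4.82 with it in 769-P. In CAKI-1 the ratio was 5.81 and 6.36 without and 3.49 and 4.67 with BCAA. It was thus lower with BCAA in every library of both lines, in 769-P through both genes and in CAKI-1 with a call on EIF4EBP2 alone. RPS6KB1, which codes for S6K1, was higher in 769-P by 0.20 ± 0.06 (adjusted p = 0.0132) and had 0.06 ± 0.06 in CAKI-1. Of its 50-base stretches 7.56% also occur in transcripts of other genes.

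Between the lines, 3 members had an effect further up in 769-P and 5 an effect further down, among 19406 genes of which 10.9% and 10.1% did so. SESN1, SEC13 and DEPTOR were the 3, and SESN2, SEH1L, FNIP1, TSC2 and EIF4EBP1 the 5. For the 3 members higher in both lines (SAR1B, SEC13 and EIF4EBP2) and the 3 lower in both (SESN2, RRAGC and TSC2), the backgrounds were 8.53% and 5.83% of the 19406 genes. These shares and those of the differences are over all genes tested. Shares over well measured genes alone, which are called more often within each line, were not taken. For 32 members the difference was not called, which does not show that their effects were alike. The widest intervals among them were those of CASTOR1, from -2.22 to 1.85, and SESN3, from -0.16 to 3.77, both read at few counts.

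**Figure D5:**
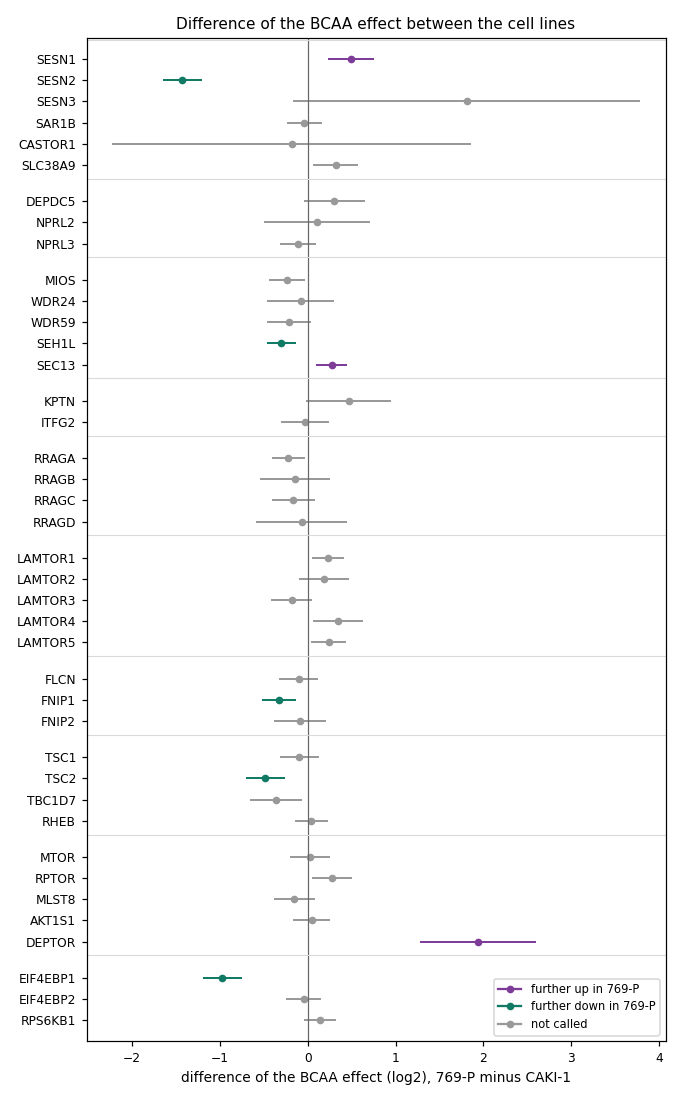
Difference of the BCAA effect between the cell lines, 769-P minus CAKI-1 (x axis, log2), for each member by complex (y axis), from 1 limma fit over 8 libraries, with 95% confidence intervals. Colors mark the 3 members further up and the 5 further down in 769-P, of which DEPTOR at 1.94 and SESN2 at -1.42 lie farthest from 0.

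Leaving out 1 library at a time left a lone library in a group, so a lost call may come from the smaller fit alone. Calls over all genes fell as well in each such fit within a line. Of the 40 members, 38 to 40 kept the direction of their effect over these fits in 769-P and 35 to 39 in CAKI-1. In 769-P, 6 members were called in each of the 4 fits with 3 libraries, namely SESN2, SEC13, RRAGC, TSC2, EIF4EBP1 and EIF4EBP2, and the other 22 lost their call in at least 1. In CAKI-1 no member and no other gene was called by limma without any 1 of the 4 libraries, although 4 to 6 members higher and 2 to 8 lower had an unadjusted p of at most 0.05, against 7 and 9 with all 4. Among the differences between lines, 6 of the 8 were called in each of the 8 fits with 7 libraries. The other two were SEC13 and FNIP1.

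Other genes of the pathway were read beside the members. Of 20 further genes for adaptors, mTORC2 subunits, assembly factors and close paralogs, 9 were higher and 7 lower among 19 tested in 769-P, and 4 were higher among 20 in CAKI-1, with medians of 0.10 and 0.07. The largest change was that of DDIT4, whose protein REDD1 acts through the TSC complex. It read 903 and 902 with BCAA and 7951 and 8065 without in 769-P (-3.15 ± 0.05, adjusted p = 9.3e-12), and was not called in CAKI-1 (-0.35 ± 0.14, adjusted p = 0.124). Of the exon bases of DDIT4 41.2% lie across from DDIT4-AS1 on the opposite strand. Some paralogs of members were called in 769-P as well. RPS6KB2 was higher (0.23 ± 0.07), as was its paralog RPS6KB1. CASTOR2 was higher (1.70 ± 0.21), RHEBL1, a relative of RHEB, was lower (-1.59 ± 0.25), and EIF4EBP3 was lower (-1.64 ± 0.51, at values of 6.82 to 43.5). Of the exon bases of EIF4EBP3 73.4% are shared with ANKHD1-EIF4EBP3 on the same strand, so its value may not be its own. In CAKI-1 the 4 called higher were EIF4E, TELO2, TTI1 and PRR5L, named after their values were seen because they were few. Each of the 4 was also called higher in 769-P. Many genes at large did the same, with 2312 higher in CAKI-1 and 1656 of the genes tested in both tables higher in both lines. Nothing particular to these 4 is read from it.

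Lists for pathways that act on some members are given by their counts, and the genes in them that were called are named, after their values were seen, where they were few. They are to be read against the 34.1% higher and 28.9% lower of well measured genes in 769-P and the 18.7% and 15.5% in CAKI-1, and nothing particular to a list is read from its count. Of 10 genes of the ATF4 pathway, the transcriptional response to amino acid lack that is known to take in SESN2, DDIT4 and EIF4EBP1 as well, 9 were lower with BCAA and 1, ATF5, was higher in 769-P, and the median over the 10 was -2.32 on the log2 scale. In CAKI-1, 5 were lower (ATF4, DDIT3, ASNS, TRIB3 and STC2) and 5 were not called, with a median of -0.29. The log2 fold changes in 769-P and CAKI-1 were -1.75 and -0.33 for SESN2 and -1.10 and -0.13 for EIF4EBP1, and those of DDIT4 are given above. Among 9 MiT/TFE factors and target genes, TFE3, SQSTM1 and CTSD were lower and MITF was higher in 769-P, and GPNMB, SQSTM1, ATP6V1H and CTSD were lower and the other 5 not called in CAKI-1. Of 10 p53 target genes, CDKN1A, MDM2, ZMAT3, BTG2 and XPC were lower and FAS and CCNG1 higher in 769-P, and CDKN1A, BTG2, FAS and XPC were lower and the other 6 not called in CAKI-1. Among 7 FOXO target genes, IRS2 and CITED2 were lower and PIK3IP1 and BCL6 higher in 769-P, and CCNG2, FBXO32 and CITED2 were lower and the other 4 not called in CAKI-1. The part of these factors in the values of the members was not tested.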

How the data were processed

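Total RNA of 8 libraries was sequenced and, per the submitters' processing notes, handled with Trim Galore, TopHat2 2.1.0, SAMtools 1.3.1, HTSeq 0.6.0, DESeq and DESeq2 on hg38. The signal values deposited by the authors, 1 table per cell line, are gene read numbers scaled by 1 size factor for each library (0.777 to 1.32), neither pooled nor divided by length. In every library 100% of values were whole multiples of 1 read within a tolerance of 0.05, so reads were recovered. Strand and counting mode are not given in the sources used here.

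Genes averaging 1 or more over a table were tested on log2(value + 1) with limma 3.58.1 (R 4.3.3, trended empirical Bayes), within each cell line, with BCAA against without. The difference between the lines was the interaction term of 1 limma fit over 8 libraries and 19406 genes. Adjusted p-values are Benjamini-Hochberg values over all genes tested, called at 0.05, and errors of log2 fold changes are SEs. Fold changes are on the log2(value + 1) scale, which understates changes of low genes. Alternatives were DESeq2 1.42.0 and edgeR 4.0.16, both run on recovered reads, other pseudocounts, filters, scalings, thinned reads, a replicate block and left-out libraries.

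The members and lists were chosen with earlier results of these data known. Named with each library's values were the Sestrins and members called in both lines. Members called in a line where they changed by at least 0.5 on the log2 scale were named too, and other members where a complex turned on them. Coordinates and exon lengths came from GENCODE 29 (GRCh38) and promoters from RefSeq (GRCh38.p14). Some results on the further genes are not reported here. No per-sample column went unmatched. RNA-seq libraries of a group differed by more than sampling noise, so each counted as 1 sample.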

Additional observations from a re-analysis of the deposited data

Results flagged for a closer look

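For 8 members the BCAA effect differed between the cell lines by the interaction term of limma, given here as 769-P minus CAKI-1 on the log2 scale. The sensors SESN1 and SESN2 had differences of 0.49 and -1.42. The GATOR2 subunits SEH1L and SEC13 had -0.30 and 0.27, and FNIP1 of the folliculin complex had -0.33. TSC2 had -0.48. DEPTOR, called in opposite directions in the lines, had 1.94, and EIF4EBP1 had -0.97. The groups held 2 libraries each, so single libraries were not tested for standing apart from their group.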

How the results depend on the processing

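The counts of members moved with the threshold and the scaling. In 769-P, 8 members were higher under quantile normalization, 7 at an adjusted p of 0.01 and 3 with a change of at least 1.5-fold, where 4 were lower. In CAKI-1, 7 were lower with median centring or with the spread taken from all 8 libraries, and 1 with thinned reads, at an adjusted p of 0.01 or at 1.5-fold, where 0 were higher. For the difference between the lines, 5 were further up with a pseudocount of 5, a mean of at least 10, quantile normalization, edgeR or DESeq2, and at 1.5-fold 1 was further up and 2 further down. Without 1 library at a time, 3 to 5 members were higher and 4 to 8 lower in 769-P, 0 were higher and 0 lower in CAKI-1, where no gene was called, and 2 to 5 were further up and 4 to 6 further down.

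Of 683 alternatives for the 44 called effects and differences, 542 kept the call, 141 lost it and 0 changed direction. Of 113 for the 7 results without a call, 3 changed direction, all on leaving out a library. The difference in SAR1B was 0.0074 without 769-P without BCAA replicate 2 (range over left-out libraries -0.083 to 0.0074), that in EIF4EBP2 was 0.046 without CAKI-1 with BCAA replicate 1 (range -0.14 to 0.046), and the effect on SESN3 in CAKI-1 was -0.15 without CAKI-1 without BCAA replicate 2 (range -0.15 to 1.18). The difference in SESN3 was called with a pseudocount of 5 (adjusted p = 0.0421). The cause of these changes was not tested.

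Same-numbered libraries share only a number. Their deviations correlated at -0.0884 in 769-P and 0.0615 in CAKI-1. With the replicate number as a block, 14 members were higher and 15 lower in 769-P, 4 and 4 in CAKI-1, and the difference in SEC13 was 0.27 with an adjusted p of 0.0543.

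With 2 libraries per condition a left-out library leaves a lone sample that is assumed to vary like the others. SESN3, CASTOR1 and, in CAKI-1, DEPTOR and RRAGD rest on few reads.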
